A study of Mus musculus with 10 samples.

Results

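Droplet barcodes that carried little RNA but much protamine and transition-protein mRNA were examined in whole testis of Smarca5-deficient mice. A barcode was a member when it held at least 500 and under 1000 UMIs (unique molecular identifiers, each standing for 1 captured mRNA molecule), at most 10% mitochondrial UMIs, at least 8% of UMIs from Prm1, Prm2, Tnp1 and Tnp2 together, and at most 1 UMI of the Sertoli cell genes Cst9 and Cst12. Members were thus chosen by their total, mitochondrial, Sertoli and 4-gene UMIs, and none of these measures is tested here. There were 403 members among 30605 barcodes of 500 UMIs or more, 290 of 12861 in replicate 1 and 113 of 17744 in replicate 2. They were set against 2581 protamine-rich barcodes of 1000 UMIs or more that met the same other limits (851 in replicate 1 and 1730 in replicate 2). In replicate 1 they were also set against 15453 barcodes of 10 to 100 UMIs, which hold mostly RNA that is free in the suspension and are called free RNA here.

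Both single-cell samples were cKO testis, with the genotype given as Smarca5 fl/delta; Ddx4-Cre+, and each started from about 15000 dissociated cells that were run on a 3′ droplet kit. Ddx4-Cre acts in germ cells, so somatic cells of these testes should keep SMARCA5, the ATPase of the ISWI chromatin remodelers. Every barcode described here is cKO, no wild type single-cell sample was analysed here, and no value below is an effect of genotype. The series also has 8 ATAC-seq libraries of sorted cells (4 cKO and 4 wild type), which were not used here. The labels give no age and do not say whether the replicates came from separate mice.

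Spermatids replace nearly all of their histones in late development. Transition proteins, encoded by Tnp1 and Tnp2, enter first, and the protamines, encoded by Prm1 and Prm2, then pack the sperm DNA. Transcription stops as the nucleus elongates, so the mRNAs of these proteins are made earlier, stored with RNA-binding proteins and translated later, and the cytoplasm with its remaining RNA is shed before sperm are released. In GRCm38 the annotation places Prm1 at chr16:10796332-10796823, Prm2 at chr16:10791377-10792105 and Tnp2 at chr16:10787935-10788655, a cluster that also holds Prm3, and Tnp1 at chr1:73015074-73015899.

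The members made up 10.2% of the barcodes of 500 to under 1000 UMIs that passed the mitochondrial and Sertoli limits in replicate 1 (exact Clopper-Pearson 95% interval 9.13 to 11.4%) and 5.25% in replicate 2 (4.35 to 6.28%). As a part of all protamine-rich barcodes they were 25.4% in replicate 1 and 6.13% in replicate 2. Of the protamine-rich barcodes in that UMI window, 15 and 0 exceeded the mitochondrial limit and 25 and 9 the Sertoli limit. Replicate 1 was deposited with all 987771 barcodes and replicate 2 with 17744 barcodes, none under 500 UMIs, so shallow barcodes were listed in full in replicate 1 only. How far this and depth set the gap between the replicates was not tested. No member barcode was shared between the replicates, and 1 barcode was shared among all protamine-rich ones.

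Members held a median of 696.5 UMIs and 462.5 genes in replicate 1 and 820 UMIs and 479 genes in replicate 2. The high-RNA protamine-rich barcodes held medians of 3088 UMIs and 1415 genes in replicate 1 and 4545 UMIs and 1653 genes in replicate 2. When every barcode was thinned to 500 UMIs, the median number of genes was 366 and 339 in members, against 359 and 349 in high-RNA protamine-rich barcodes of the same replicates. Members were thus higher in replicate 1 and lower in replicate 2, and 2 replicates allow no test of the gap. Other barcodes of 500 to under 1000 UMIs had medians of 425 and 424 genes at the same depth, a comparison that the rule affects, since it gives at least 8% of the members' UMIs to 4 genes. With the 4 genes removed and every barcode thinned to 300 UMIs, the medians were 260 and 246 genes in members, against 270 and 267 genes in other shallow barcodes.

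The label of late spermatids was checked on lists that the rule did not use. A list of 12 transcripts of elongating spermatids, among them Smcp (a mitochondrial capsule protein of sperm), Oaz3, Gsg1 and Dbil5, gave 3.25% and 4.14% of the members' UMIs in replicates 1 and 2, against 0.462% and 0.367% in other barcodes of 500 to under 1000 UMIs and 0.775% in free RNA. Genes for the outer dense fibres and the fibrous sheath of the sperm tail gave 1.23% and 1.45% in members, against 0.478% and 0.339% in the other shallow barcodes and 0.700% in free RNA. Both lists therefore stood above both backgrounds in every replicate measured. Early round spermatid genes did so too, at 0.157% and 0.172%, against 0.0651% and 0.0473% in other shallow barcodes and 0.0896% in free RNA. Acrosome genes lay below both, at 0.133% and 0.122%, against 0.223% and 0.172% in other shallow barcodes and 0.218% in free RNA. These lists therefore do not by themselves separate late from earlier spermatids. The genes that led members over other shallow barcodes, by the mean log2 ratio among 3544 genes, were Nudt16l2, Prm2, 1700009J07Rik, 1700012A03Rik and Dnajb8. Dnajb8, a testis co-chaperone, had 1449 and 2718 CPM (UMIs per 1000000 UMIs of the class) in members, against 119 and 139 CPM in other shallow barcodes. This contrast was used by the rule and carries no test.

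Markers of other cells made up small shares of the members' UMIs. The 4 globin genes had no UMI among the members' 207008 and 90508 UMIs, while Hbb-bs alone had 468 and 2581 CPM in other shallow barcodes. Markers of peritubular cells gave 0.000966% and 0.00663% of the members' UMIs, and macrophage markers 0.0285% and 0.0563%, against 0.0230% in free RNA. Apoe alone gave 50 of the 59 and 38 of the 51 UMIs of the macrophage list in members. Of the Sertoli markers, 8 that the rule did not use gave 0.0430% and 0.0343%, against 0.0464% and 0.0712% in other shallow barcodes and 0.0501% in free RNA. Spermatocyte markers gave 0.0551% and 0.0453%, against 0.234% and 0.351% in other shallow barcodes and 0.216% in free RNA. The nuclear RNA Malat1 had 242 and 376 CPM in members, against 3032 and 3972 CPM in other shallow barcodes and 1190 CPM in free RNA. Smarca5 itself had 5 and 1 UMIs in members, and a 3′ tag does not show whether the deleted part was lost.

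Against free RNA, which was measured in replicate 1 only and therefore has no test, the genes with the highest ratio among 2596 were Tmem56, 1700009J07Rik, Spata18, Glul and Prm2. Spata18 had 1208 CPM in members of replicate 1, against 150 CPM in free RNA. Glul, the glutamine synthetase gene, had 1169 CPM in members, against 147 CPM in free RNA. The genes with the lowest ratio were Ttc30a2, Gm6639, Bbs9, Vcp and Ddx17. Vcp, an ATPase that unfolds ubiquitinated proteins, had 1 UMI (4.83 CPM) in members of replicate 1, against 142 CPM in free RNA. These lists describe 1 replicate, and the rule genes among them were chosen to be high.

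The 4 rule genes were in different proportion in members and in deeper protamine-rich barcodes, and Prm2 stood out. Prm2 gave 4.42% and 7.0% of the members' UMIs in replicates 1 and 2, against 3.66% and 4.00% in high-RNA protamine-rich barcodes. Prm1 gave 3.45% and 2.66% in members, against 3.62% and 3.90% in high-RNA barcodes. Tnp1 gave 2.18% and 1.15% in members, against 2.53% and 2.07%, and Tnp2 gave 3.01% and 2.08%, against 3.38% and 3.20%. Members were higher for Prm2 and lower for the other 3 genes in both replicates, with the wider gaps in replicate 2. Prm2 made up 33.8% and 54.3% of the 4-gene UMIs in members, against 27.7% and 30.3% in high-RNA barcodes and 21.9% in free RNA. These genes chose the barcodes, so the values are a description.

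A minority of the members carried far more Prm2 than the other members. In 31 of 290 members of replicate 1 (10.7%, interval 7.38 to 14.8%) and 41 of 113 members of replicate 2 (36.3%, 27.4 to 45.9%), Prm2 made up at least 70% of the 4-gene UMIs. The share in high-RNA protamine-rich barcodes was 44 of 851 (5.17%, 3.78 to 6.88%) in replicate 1 and 83 of 1730 (4.80%, 3.84 to 5.91%) in replicate 2. These barcodes are called Prm2-dominant here, those with 40 to under 70% Prm2 middle, and those under 40% balanced. The limits were set after the values had been seen, so the states are described with no test. Thinning all barcodes to 500 UMIs left the Prm2-dominant share at 10.3% and 34.5% in members, against 5.41% and 4.97% in high-RNA barcodes.

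**Figure D1:**
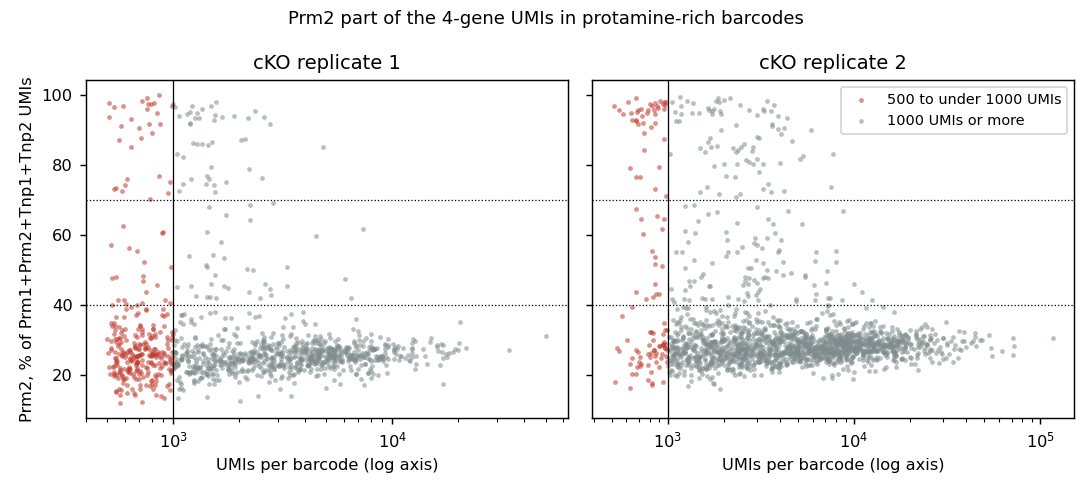
Each point is 1 protamine-rich barcode, with its UMIs on a log axis and the part of its Prm1, Prm2, Tnp1 and Tnp2 UMIs that came from Prm2 on the vertical axis, for both cKO replicates. The dotted lines mark 40% and 70% Prm2 and the vertical line 1000 UMIs. Points above 70% are frequent at low UMIs and there is none at 8000 UMIs or more.

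The Prm2-dominant share ran with the number of UMIs. In replicate 1 it was 9.09% at 500 to under 750 UMIs, 13.2% at 750 to under 1000, 13.0% at 1000 to under 2000, 3.25% at 2000 to under 4000, 0.408% at 4000 to under 8000 and 0% of 91 barcodes at 8000 or more. In replicate 2 it was 47.6%, 29.6%, 9.26%, 9.13%, 2.49% and 0% of 534 barcodes over the same bins. A count of 0 allows a share of up to 3.97% in replicate 1 and 0.688% in replicate 2 (upper end of the exact interval). In replicate 1 the intervals of both member bins overlapped that of 1000 to under 2000 UMIs, while in replicate 2 both lay above it. The intervals cover counting error only.

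The states were set by the Prm2 part of the 4-gene UMIs, so the other 3 genes together had to differ against Prm2. Only the split among these 3 was free, and it is described here within members. In Prm2-dominant members there were 5.89 and 5.29 Prm1 UMIs for every 100 Prm2 UMIs in replicates 1 and 2, against 69.8 and 53.1 in middle members and 112 and 114 in balanced members. Tnp1 had 1.63 and 0.585 UMIs per 100 Prm2 UMIs in Prm2-dominant members, 14.2 and 8.16 in middle members and 77.1 and 62.9 in balanced members. Tnp2 had 3.46 and 2.39, then 21.5 and 25.5, then 106 and 103. In the middle state the part of Prm1 was thus still well above that of either transition protein gene, whereas in the Prm2-dominant state all 3 were low. These are ratios of 3′ tags, which count 1 end of each molecule and are not scaled by gene length.

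The levels without Prm2 as the divisor are no separate evidence. The total share of the 4 genes was similar in Prm2-dominant and balanced members. Low Prm1, Tnp1 and Tnp2 together in Prm2-dominant members therefore follow from the limits that define the states. Prm1 had 6673 and 6522 CPM in Prm2-dominant members, 46190 and 35857 CPM in middle members and 37116 and 37932 CPM in balanced members. Tnp1 had 1849 and 721 CPM in Prm2-dominant members, 9404 and 5511 CPM in middle members and 25508 and 20916 CPM in balanced members. Prm1 in middle members was thus above its level in balanced members in replicate 1 and just below it in replicate 2, Tnp1 was lower in middle than in balanced members, and both were low in Prm2-dominant members. Of the Prm2-dominant members, 13 of 31 and 25 of 41 had no Tnp1 UMI at all, and 3 in each replicate had no Prm1 UMI. No balanced member lacked any of the 4. The total share of the 4 genes hardly differed, at 12.6% and 13.4% of UMIs in Prm2-dominant members and 13.1% and 12.6% in balanced members.

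**Figure D2:**
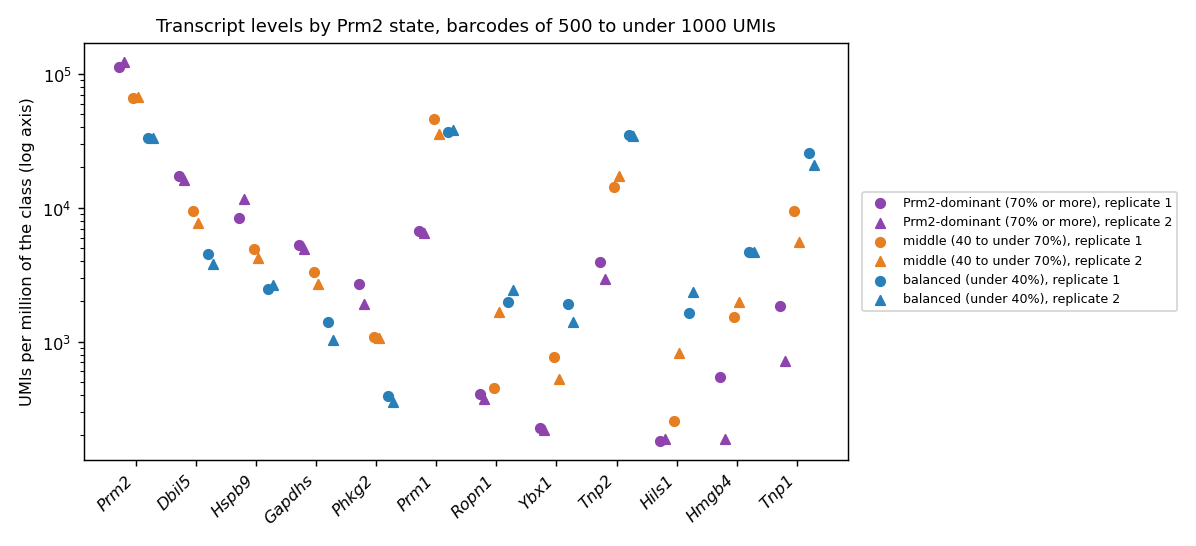
CPM of 12 transcripts (log axis) in Prm2-dominant, middle and balanced barcodes of 500 to under 1000 UMIs, with circles for replicate 1 and triangles for replicate 2. Prm2, Dbil5, Hspb9, Gapdhs and Phkg2 step down from the Prm2-dominant to the balanced state, Prm1 is low in the Prm2-dominant state only, and Tnp2, Tnp1, Hmgb4, Hils1, Ybx1 and Ropn1 step up.

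Transcripts that the rule did not use also differed between the states. Among 156 such genes of at least 1000 CPM in the Prm2-dominant or the balanced members of each replicate, 100 were higher in Prm2-dominant members by the mean log2 ratio (after adding 10 CPM to each value). Phkg2, a catalytic subunit of phosphorylase kinase, led with 2705 and 1913 CPM in Prm2-dominant members, against 396 and 353 CPM in balanced members. Gapdhs, the sperm form of a glycolytic enzyme, had 5230 and 4955 CPM, against 1407 and 1036 CPM. Dbil5, an acyl-CoA binding protein gene of spermatids, had 17179 and 16149 CPM, against 4545 and 3813 CPM. The small heat shock gene Hspb9 had 8342 and 11728 CPM, against 2459 and 2667 CPM. Iqcf4, Spz1, Car2, Tbc1d20, Lelp1 and Tppp2 completed the 10 with the highest ratio. In every one of the 4 examples both Prm2-dominant values lay above both balanced values. They were picked from the top of the ranking by this ratio, and Phkg2 reached 1000 CPM in the Prm2-dominant state only, so this gap is no further support.

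On the other side, Hmgb4, Iqcf1, Hils1, 1700019N19Rik and Ybx1 were the furthest below. Hmgb4, an HMG-box protein gene of spermatids, had 541 and 188 CPM in Prm2-dominant members, against 4651 CPM in balanced members of either replicate. Hils1, the linker histone of elongating spermatids, had 180 and 188 CPM, against 1643 and 2336 CPM. Ybx1, a nucleic acid-binding Y-box protein gene, had 225 and 219 CPM, against 1903 and 1411 CPM. Spata19, which encodes a sperm mitochondrial protein, had 361 and 157 CPM, against 1702 and 1675 CPM. By lists, the elongating spermatid transcripts gave 6.27% and 6.35% of UMIs in Prm2-dominant members, against 2.77% and 2.66% in balanced members. Testis histones gave 0.347% and 0.310%, against 0.790% and 0.782%. Early round spermatid genes gave 0.0857% and 0.0847%, against 0.168% and 0.245%. The list of elongating spermatid transcripts held members on both sides, since Hmgb4 belongs to it as well as Dbil5.

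The same genes were read in protamine-rich barcodes of 1000 UMIs or more, whose barcodes are separate from the members. Of the 156 genes, 147 had a ratio of the same sign there. Of 70 genes at least 2-fold higher in Prm2-dominant members, 66 were also at least 2-fold higher in Prm2-dominant high-RNA barcodes. Of 41 genes at least 2-fold lower, 37 were also at least 2-fold lower there. Phkg2 had 1544 and 1144 CPM in Prm2-dominant high-RNA barcodes, against 403 and 301 CPM in balanced ones. Spata19 had 70.8 and 173 CPM, against 2300 and 2476 CPM. The state was therefore present in both depth classes. It was more frequent among members than among all deeper protamine-rich barcodes. Against those of 1000 to under 2000 UMIs this held in replicate 2 only. In replicate 1 the share was 9.09% and 13.2% in the 2 member bins and 13.0% at 1000 to under 2000 UMIs.

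**Figure D3:**
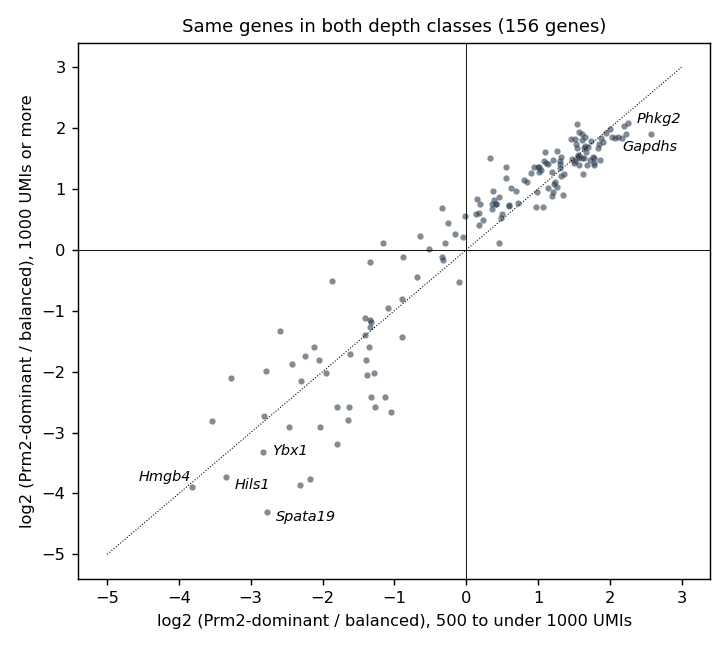
Each of 156 points is a gene that the rule did not use, with the mean over both replicates of its log2 ratio between Prm2-dominant and balanced barcodes, in barcodes of 500 to under 1000 UMIs on the horizontal axis and of 1000 UMIs or more on the vertical axis. The dotted line marks equal ratios, and 147 genes have the same sign on both axes.

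Mitochondrial mRNAs, which the rule limits, gave 1.42% and 0.760% of the members' UMIs, against 0.625% and 0.249% in high-RNA protamine-rich barcodes, 2.69% and 2.84% in other shallow barcodes and 3.67% in free RNA. In Prm2-dominant members they gave 2.01% and 1.15%, against 1.37% and 0.509% in balanced members. Their part in the states was not tested. Macrophage markers gave 0.0406% and 0.0690% of UMIs in Prm2-dominant members, against 0.0254% and 0.0441% in balanced members, and Sertoli markers, Cst9 and Cst12 included, 0.0496% and 0.0408%, against 0.0544% and 0.0595%. The macrophage shares rest on 9 and 22 UMIs in Prm2-dominant members and 43 and 20 in balanced members.

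Whether the rest of the transcriptome differed between members and deeper protamine-rich barcodes was tested on UMI counts summed per replicate and class, without the genes the rule used. With edgeR's quasi-likelihood test, the replicate as a block and Benjamini-Hochberg adjustment at 0.05, 65 of 9744 genes (0.667%) were higher in members and 146 (1.5%) were lower, together 2.17%, and the median log2 fold change over all genes was -0.12. The filter on low counts could pass a gene through its level in 1 class alone. For such genes the direction of a call was in part set beforehand. The calls also depended on which barcodes formed the classes. Only 11 were higher and 7 lower without the Prm2-dominant barcodes of both classes, a choice made after seeing the data. Fold changes were followed for 22 called genes, the 10 highest and 10 lowest of at least 100 CPM in a class, Hils1 and Fhl5. Without the Prm2-dominant barcodes their log2 fold changes came to between 77.2% and 104% of the values with them. The other called genes named below, such as those of the acrosome, were not followed. When the high-RNA class was limited to 1000 to under 2000 UMIs, 3395 genes passed the filter, none was called by edgeR, 319 had an unadjusted p under 0.05, and the log2 fold changes of the 22 genes came to a median of 44.0% of their values. Without the replicate block 7 genes were higher and 5 lower. The calls below therefore describe members against the whole range of deeper barcodes, not against the nearest ones in depth.

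The acrosome is the enzyme-filled cap of the sperm head that forms in round spermatids. Of 17 genes of the acrosome and of gamete fusion, all tested, 4 were lower in members and 0 higher, against 1.5% lower and 0.667% higher over all genes, and the median log2 fold change of the list was -1.06. Spaca7, an acrosome-associated gene, had 193 and 66.3 CPM in members, against 311 and 340 CPM in high-RNA barcodes (log2 fold change -1.37 ± 0.33 SE, edgeR adjusted p = 0.00825). Spaca4, a sperm membrane protein gene that acts at fertilization, had 58.0 and 77.3 CPM, against 134 and 220 CPM (-1.53 ± 0.37, adjusted p = 0.0104). Acrv1 and Lyzl4 were the other two that fell, by 1.38 and 1.33 on the log2 scale. Zpbp2 was the highest of the list, with 53.1 and 66.3 CPM in members, against 37.9 and 14.6 CPM in high-RNA barcodes, and did not pass the test (adjusted p = 0.408). The list as a whole gave 0.133% and 0.122% of UMIs in members, against 0.184% and 0.231% in high-RNA barcodes, a mean log2 ratio of -0.70. Against high-RNA barcodes under 2000 UMIs that ratio was 0.18, so the direction turned.

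Genes of earlier spermatids and of chromatin gave single calls. Cst13, a cystatin gene of round spermatids, had 739 and 740 CPM in members, against 1414 and 1546 CPM in high-RNA barcodes (-1.19 ± 0.31, edgeR adjusted p = 0.0166), the single call among 6 early round spermatid genes, whose median was -0.53. Hils1 had 1382 and 1359 CPM in members, against 2117 and 3240 CPM (-1.13 ± 0.34, edgeR adjusted p = 0.0423), the single call among 7 tested testis histones, whose median was -0.52. Fhl5, a coactivator of the germ cell factor CREM, had 522 and 563 CPM, against 922 and 1084 CPM (-1.08 ± 0.30, edgeR adjusted p = 0.0322), the single call among 8 transcription regulators, whose median was -0.51. In the 3 cases both member values lay below both values of the deeper barcodes. These genes were picked because they were called lower, so this gap is no further support.

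Several other lists had no call in either direction. None of 12 elongating spermatid transcripts, 11 tested fibre and sheath genes, 5 tested TSSK kinases or 12 genes of mRNA storage passed. Nor did any of 8 genes of glycolysis, 9 chaperone and ubiquitin genes or 80 tested ribosomal protein genes. Over all genes 0.667% were called higher and 1.5% lower, so a short list without a call says little. By edgeR 1459 of all 9744 genes had an unadjusted p under 0.05. The median log2 fold changes of the lists, in that order, were 0.12, 0.03, -0.22, 0.24, 0.23, -0.13 and -0.21. Spem1, needed to shed the spermatid's cytoplasm, was the highest of the elongating spermatid transcripts at 464 and 917 CPM in members, against 334 and 368 CPM (0.68 ± 0.28, edgeR adjusted p = 0.189). Capza3, a testis capping protein gene, was the lowest at 686 and 475 CPM, against 956 and 946 CPM (-0.90 ± 0.30, edgeR adjusted p = 0.0869). Prm3, a protamine-like gene of the same cluster that the rule did not use, had 1488 and 1370 CPM in members, against 1777 and 1808 CPM (-0.53 ± 0.32, edgeR adjusted p = 0.424). Tssk6, a kinase of late spermatids, had 850 and 2431 CPM in members, against 811 and 1338 CPM, so that its gap lay mostly in replicate 2.

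**Figure D4:**
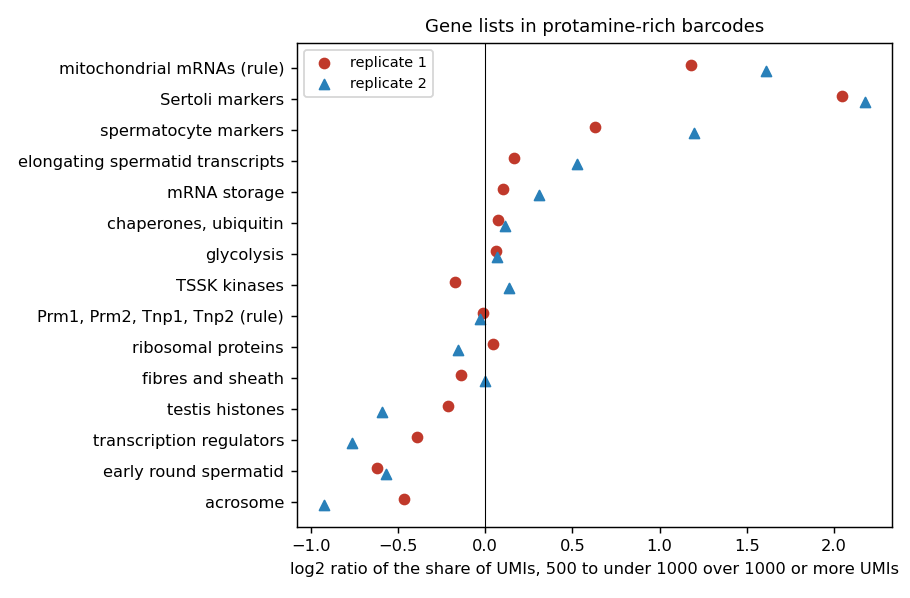
The log2 ratio of each gene list's share of UMIs in protamine-rich barcodes of 500 to under 1000 UMIs over those of 1000 UMIs or more, with circles for replicate 1 and triangles for replicate 2. Lists marked as rule were used to choose the barcodes. The Sertoli list is not so marked but holds Cst9 and Cst12, which the rule also limited. Acrosome, early round spermatid, regulator and testis histone lists lie below 0 in both replicates, and of the lists drawn Sertoli markers and mitochondrial mRNAs lie furthest above. Marker lists of other cells, apart from Sertoli cells and spermatocytes, are not drawn.

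Among called genes of at least 100 CPM in a class, those furthest below the deeper barcodes were 4930500M09Rik, Ormdl3, Psd3, Cypt12, Gm50092, Atp6v1e2, 1700125H03Rik, 1700021F07Rik, Fam71b and Pfn3, with log2 fold changes between -2.12 and -1.57. Cypt12, of a family of cysteine-rich perinuclear theca genes, was the most abundant, with 372 and 210 CPM in members, against 838 and 1054 CPM in high-RNA barcodes (-1.82 ± 0.32, edgeR adjusted p = 3.46e-05). Atp6v1e2, a testis subunit of the proton pump that acidifies the acrosome, had 101 and 110 CPM in members, against 254 and 316 CPM (-1.59 ± 0.34, adjusted p = 0.00186). Psd3, an exchange factor for ARF GTPases, had 67.6 and 33.1 CPM, against 171 and 183 CPM. Scp2d1, Spata19 and Cypt1 were among the other called genes and fell by 1.25, 1.16 and 1.15 on the log2 scale. Genes under that level had larger fold changes on few UMIs, such as Tmco5b at -3.63 with 4.83 and 11.0 CPM in members, against 68.6 and 86.1 CPM.

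Among called genes of at least 100 CPM in a class, those furthest above were Gm42418, Aard, Camk1d, Shb, AY036118, Ctsl, Fsip2, Mphosph8, Cfap36 and Shcbp1l, with log2 fold changes between 2.23 and 1.55. Gm42418, which overlaps ribosomal RNA sequence, as AY036118 also does, had 1092 and 14507 CPM in members, against 278 and 1973 CPM in high-RNA barcodes (2.23 ± 0.38, edgeR adjusted p = 1.26e-05). It had 1402 and 21381 CPM in other shallow barcodes and 4029 CPM in free RNA, so replicate 2 was high in all classes and members lay below the other shallow barcodes in each replicate. Camk1d, a calcium-dependent kinase gene, had 96.6 and 552 CPM in members, against 22.3 and 101 CPM, with 288 CPM in free RNA. Cfap36, a cilia protein gene, had 295 and 221 CPM in members, against 97.1 and 56.5 CPM, with 841 CPM in free RNA. Phkg2 was also called, at 0.92, with 696 and 1005 CPM in members, against 440 and 329 CPM. Only 27 of the 65 genes called higher had at least 100 CPM in a class, against 120 of the 146 called lower. Genes under that level had larger fold changes on few UMIs. Zfp954 was at 4.02 with 19.3 and 11.0 CPM in members, against 1.12 and 0.485 CPM.

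Sertoli cell genes were the single marker list with more than 1 call. Of 5 tested genes 3 were higher in members and none lower, against 0.667% higher over all genes, with a median of 1.77. The rule allows every barcode at most 1 UMI of Cst9 and Cst12, which is a stricter limit for a deep barcode than for a shallow one, and its part in this direction was not tested. Aard had 198 and 122 CPM in members, against 40.2 and 23.8 CPM in high-RNA barcodes and 191 CPM in free RNA (2.15 ± 0.33, edgeR adjusted p = 5.76e-07). Ctsl, the cathepsin L gene, had 101 and 99.4 CPM in members, against 28.7 and 25.6 CPM, with 121 CPM in free RNA. Clu, the clusterin gene, had 72.5 and 88.4 CPM, against 20.4 and 20.0 CPM, with 109 CPM in free RNA. The 8 Sertoli markers other than Cst9 and Cst12 together gave 0.0430% and 0.0343% of the members' UMIs, against 0.0104% and 0.00806% in high-RNA barcodes. Amh and Sox9 had no UMI in members and Wt1 had 1. Spermatocyte markers had no call, with 7 of 7 tested genes above 0 and a median of 0.60, while 5434 of all 9744 genes lay below 0. The 8 spermatocyte markers together had 114 and 41 UMIs in members.

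Free RNA levels of replicate 1 are given beside the genes called higher, with no count of agreement, since both ratios would share the same barcodes. Fsip2, a fibrous sheath interacting protein gene, had 130 CPM in members and 45.2 CPM in high-RNA barcodes of that replicate, with 379 CPM in free RNA. Shcbp1l, a testis gene that acts in meiosis, had 140 CPM in members and 44.4 CPM in high-RNA barcodes, with 527 CPM in free RNA. Mphosph8, a gene of the HUSH silencing complex, had 101 CPM in members and 38.8 CPM in high-RNA barcodes, with 320 CPM in free RNA. In these genes free RNA was the highest of the 3. The part of free RNA in the calls was not tested, and replicate 2 lists no barcode from which its free RNA could be read.

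Whether a depth difference was particular to protamine-rich barcodes was tested as well. The difference between low-RNA and high-RNA protamine-rich barcodes was set against that between other barcodes of the same 2 depth ranges. Of 16424 genes, 240 (1.46%) had a higher and 1469 (8.94%) a lower difference in protamine-rich barcodes, together 10.4%, with a median of -0.70 (438 and 1336 with DESeq2 size factors, with a median of -0.57). Genes could pass the filter through the other barcodes alone, which bears on the excess of lower calls. H2-Aa, for example, was called lower at -14.5 with no UMI in members. Over the 9744 genes tested in both comparisons the median was -0.37. This test uses the same protamine-rich sums as the one above, so an overlap with the calls above is in part built in. The other barcodes are a mixture of cell types whose makeup may differ with depth, which was not tested.

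Barcodes next to the limits are given as a description. Members with a 4-gene share of 8 to under 9% (37 in replicate 1 and 11 in replicate 2) had Prm2 at 34.8% and 47.8% of the 4-gene UMIs, against 32.0% and 28.0% in barcodes of 7 to under 8% (22 and 16). Members within 100 UMIs below the upper UMI limit (37 and 30) had Prm2 at 32.9% and 52.0%, against 31.6% and 33.1% in the 43 barcodes of each replicate within 100 UMIs above it. The 79 members of replicate 1 within 100 UMIs above the lower limit had 33.6%, against 31.8% in 79 barcodes within 100 UMIs below it. In replicate 1 these values ran on across each limit, and in replicate 2 the Prm2 part was higher inside than outside both the share limit and the upper UMI limit.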

How the data were processed

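The matrices that the authors deposited list raw UMI counts of 32285 genes; per the file headers, replicate 1 was made with Cell Ranger 7.1.0 and replicate 2 with 9.0.1. The submitters' processing notes name mm10 and Seurat 4.1.0. The matrices total 63605819 and 115830234 UMIs. Members, gene lists and tests were chosen with earlier results of these data known. Counts were summed per replicate and class and tested with edgeR 4.0.16 (filterByExpr, TMM, quasi-likelihood, two-sided, Benjamini-Hochberg over all genes tested), without the 4 rule genes, mt- genes, Cst9 and Cst12. The standard error is the size of the log2 fold change over the square root of F. The replicate was a block because both classes of a replicate come from 1 suspension; over 1890 genes the replicate differences of the classes correlated at 0.451. With 2 replicates no exact permutation p can go under 0.5, so single values carry none. The edgeR p-values rest on how far the class difference varied between 2 samples, with information shared across genes. The 2 samples may not be separate animals. The scripts were tested on simulated data.

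Named genes were the rule genes, the ends of each of 21 lists, the called list members and genes of the Prm2 states. They included the 10 highest and 10 lowest called genes of at least 100 CPM in a class, with the same direction in both replicates. The 5 ends of each ratio to free RNA and to other shallow barcodes were named too. The called list members, Prm3, Phkg2, Scp2d1, Spata19, Cypt1 and the state genes were picked after their values were seen. Scrublet (scanpy 1.11.5) called 722 of 8098 and 1361 of 14262 barcodes of 1000 UMIs or more, of which 37 and 119 were protamine-rich; they were removed in an alternative only, and no caller was run on members. Genes were placed with RefSeq's GRCm38.p6 annotation, matched by symbol. Alternatives varied the classes, scaling, filter, block and test.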

Additional observations from a re-analysis of the deposited data

Results flagged for a closer look

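Depth differences not alike in protamine-rich and other barcodes were found for 93 of the 211 called genes, against 10.4% of all 16424 genes. They came from edgeR's quasi-likelihood test of the difference between the 2 depth differences. That test uses the protamine-rich sums that also called the 211 genes, so the overlap is in part built in and is no separate support. The median of this difference over the 9744 genes tested in both comparisons was -0.37 on the log2 scale, and values are to be read against it. The 211 genes come from these 9744, so the 10.4% over 16424 genes is not a like share for them. The share over the 9744 is not given here. Of the 20 genes named for the size of their change, 10 passed. In 7 the protamine-rich difference lay below that of other barcodes, by -3.86 for Psd3, -3.52 for Ormdl3, -2.30 for 4930500M09Rik, -2.20 for Gm50092, -1.92 for 1700125H03Rik, -1.73 for Fam71b and -1.58 for Cypt12. In 3 it lay above, by 2.49 for Cfap36, 2.37 for Shcbp1l and 1.69 for Mphosph8. Psd3 and Ormdl3 were higher in shallow than in deep other barcodes (1.26 and 0.89), the opposite of their direction in protamine-rich ones. Cfap36, Shcbp1l and Mphosph8 were lower in shallow than in deep other barcodes (-1.52, -1.38 and -0.63). Groups of 2 replicates are too small to look for single samples that stand apart.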

How the results depend on the processing

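With DESeq2 size factors all 211 calls of members over high-RNA barcodes were made again among 245. Genes called higher and lower numbered 7 and 5 without the replicate block, 14 and 21 at a 4-gene share of at least 15%, 0 and 0 with the high-RNA class under 2000 UMIs, and 2 and 0 with members under 750 UMIs. They numbered 11 and 7 without Prm2-dominant barcodes, 22 and 1169 with all 4 classes in the fit, and 6 and 38 with DESeq2's Wald test, which gave an adjusted p to 1054 genes. Without a filter on low counts 15 were higher, with doublets removed 175 were higher, and with the rule genes kept 269 were lower. The classes hold fewer barcodes or genes in several of these settings; otherwise the cause was not tested. In the test against other barcodes, the genes called higher numbered 438 with DESeq2 size factors and 156 without the replicate block. Leaving out a replicate kept the direction of all 22 called genes that were followed. Genes named for the size of their change had to share a direction in both replicates, so for them this was fixed beforehand. The 1 reversal among the 22 was Fhl5 at 0.0045 with the high-RNA class under 2000 UMIs. Other called genes named in the text were not in this check.

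With that class the mean log2 ratio of the elongating spermatid list was 0.026 and that of the acrosome list 0.18, against 0.35 and -0.70. Leaving out a replicate gave 0.17 to 0.53 and -0.93 to -0.46. Members minus high-RNA barcodes came to -10 to 7 genes at 500 UMIs, and to 5.52 to 31.5 percentage points of Prm2-dominant barcodes, 20.8 with a limit of 60% and 15.4 with 80%. The 4 genes were 1.61% of free RNA at 10 to 50 UMIs, against 2.64% at 10 to 100 UMIs. Members hold 207008 and 90508 UMIs in all, which limits what can be read of genes at low levels.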
